A study of Mus musculus with 6 samples.

Results

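Calcrl, its 3 accessory proteins Ramp1, Ramp2 and Ramp3, and the ligand gene Adm make up the adrenomedullin receptor system described here, 5 of the 19938 genes measured. They were chosen by membership of this receptor and ligand family, with the log2 values of the 3 DKO and 3 control arrays already known for them, so their values are given as a description and without a test. Each of the 5 had 1 probe set of its own on the array, which was the set used. RNA came from whole lung buds of E11.5 mouse embryos, an early stage of branching, and 6 samples were hybridised to Affymetrix MoGene 1.1 ST arrays. The 3 control samples carried Shhcre alone. The 3 samples called DKO had the genotype Shhcre:Hdac1fl/fl; Hdac2 fl/fl, so that both groups carried the Cre allele, and the stated strain was C57BL/6 and 129X1,129S1 throughout. Cre is expressed from the Sonic hedgehog locus, which is active in the epithelium of the lung at this stage, and the floxed Hdac1 and Hdac2 genes encode histone deacetylases of repressor complexes. The labels call the samples of a group biological replicates. Pooling of embryos is neither stated nor denied there, and the p-values below refer to the spread among samples.

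Adrenomedullin is a small secreted peptide that dilates vessels and is required for the growth of blood and lymphatic vessels in the embryo. Its receptor is a pair of proteins: the calcitonin receptor-like receptor, encoded by Calcrl, is a class B G protein-coupled receptor that reaches the cell surface only with a receptor activity-modifying protein. With the product of Ramp1 it binds calcitonin gene-related peptide, and with the products of Ramp2 or Ramp3 it binds adrenomedullin. The bound receptor acts mainly through the stimulatory G protein and cyclic AMP. In the lung the receptor is known above all from endothelial cells.

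The letters before the start sites of the receptor gene and of its ligand are shown because Calcrl was the gene of the 5 whose groups stood apart and Adm is the peptide it receives. RefSeq windows were found for 4 of the 5 genes, with Ramp2 as the gene not matched, and the 250 bases before the start of each were searched. The capitals mark the GC box GGGCGG and the TATA core TATAA, both read on both strands. The Calcrl window is chr2:84425267-84425516 on the minus strand and the Adm window chr7:110627407-110627656 on the plus strand, both of GRCm38.p6.
Calcrl: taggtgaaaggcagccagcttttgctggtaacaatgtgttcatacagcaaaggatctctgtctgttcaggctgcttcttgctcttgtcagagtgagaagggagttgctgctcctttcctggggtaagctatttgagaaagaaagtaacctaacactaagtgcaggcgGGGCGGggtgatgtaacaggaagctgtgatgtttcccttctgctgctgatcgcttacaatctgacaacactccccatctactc
Adm: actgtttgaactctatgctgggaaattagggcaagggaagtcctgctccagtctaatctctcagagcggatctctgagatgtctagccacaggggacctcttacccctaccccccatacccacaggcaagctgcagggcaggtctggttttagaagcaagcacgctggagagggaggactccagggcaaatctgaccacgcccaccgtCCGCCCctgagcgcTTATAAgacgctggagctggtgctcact
The Calcrl window held 1 GC box, which starts 83 bases before the start site, and no TATAA. The Adm window held 1 GC box at 42 bases and TATAA on both strands, overlapping as TTATAA, at 28 and 27 bases. Ramp3 held 3 GC boxes in its window and Ramp1 held 0. Over all 32851 windows of this length in the table, 32.7% held GGGCGG and 22.8% held TATAA. The hypoxia element core ACGTG was in 16.6% of all windows and the cyclic AMP element TGACGTCA in 1.55%, and neither was in any of the 4 windows. These matches describe letters and not binding.

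Calcrl was 1.89-fold higher in the DKO buds. Its log2 level (probe 10484371) was 10.13, 10.24 and 10.25 in controls 1 to 3, and 11.09, 11.13 and 11.15 in DKO 1 to 3. The 3 DKO arrays lay close together and all above the highest control, and the gap between the groups was many times the spread within either. The means were 10.21 ± 0.07 for control and 11.13 ± 0.03 for DKO (SD, n = 3 each). The log2 change, DKO minus control, was 0.92 (standard error, SE, 0.05, 95% interval 0.80 to 1.04), the 10th largest rise among all genes. With any single array left out it stayed between 0.88 and 0.94. The cells that carry the transcript cannot be seen in whole buds, where more cells of a type and more RNA per cell cannot be told apart.

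For all 3 Ramp genes the groups overlapped. Ramp2, the partner for adrenomedullin that is itself typical of endothelium, had log2 levels (probe 10381298) of 9.84, 9.85 and 9.89 in controls 1 to 3 and of 10.02, 10.09 and 9.82 in DKO 1 to 3. DKO 1 and DKO 2 were above all controls and DKO 3 below them, so the groups overlapped. The means were 9.86 ± 0.02 and 9.98 ± 0.14 (SD, n = 3 each), and the log2 change of 0.11 (SE 0.07) had an interval of -0.05 to 0.28. This change rests on single arrays: it was 0.06 without DKO 2, 0.19 without DKO 3 and -0.006 with arrays weighted by their scatter.

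Ramp1, the partner for calcitonin gene-related peptide, gave nearly the same values in both groups (probe 10348537). Its log2 level was 7.36, 7.45 and 7.42 in controls 1 to 3 and 7.36, 7.42 and 7.44 in DKO 1 to 3. The groups overlapped over their whole range, and the interval of the log2 change ran from -0.12 to 0.11. Ramp3, the other partner for adrenomedullin, varied most from array to array (probe 10374197), with log2 levels of 7.39, 7.11 and 7.15 in controls 1 to 3 and of 7.06, 7.52 and 7.36 in DKO 1 to 3. The lowest and the highest value were both from DKO arrays. Its log2 change was 0.09 (SE 0.12), the interval -0.17 to 0.36, and the value ran from -0.01 without DKO 2 to 0.22 without DKO 1.

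The ligand gene Adm had log2 levels (probe 10556297) of 6.80, 7.04 and 6.77 in controls 1 to 3 and of 6.98, 6.87 and 6.86 in DKO 1 to 3. All DKO values fell between the lowest and the highest control. The means were 6.87 ± 0.15 and 6.90 ± 0.07 (SD, n = 3 each), a log2 change of 0.04 (SE 0.08) with an interval of -0.14 to 0.21. On these arrays the probe sets of Adm, Ramp1 and Ramp3 were below the array medians of 7.87 to 7.89, and the deposited values carry no detection call. How much of such a dim signal is background was not measured, and a change in a transcript near background would be compressed. Of the 5 genes, the groups did not overlap for 1, Calcrl, and overlapped for the other 4, against 18.8% of all genes whose groups did not overlap, and nothing is read from that count because the genes were chosen with it known.

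**Figure D1:**
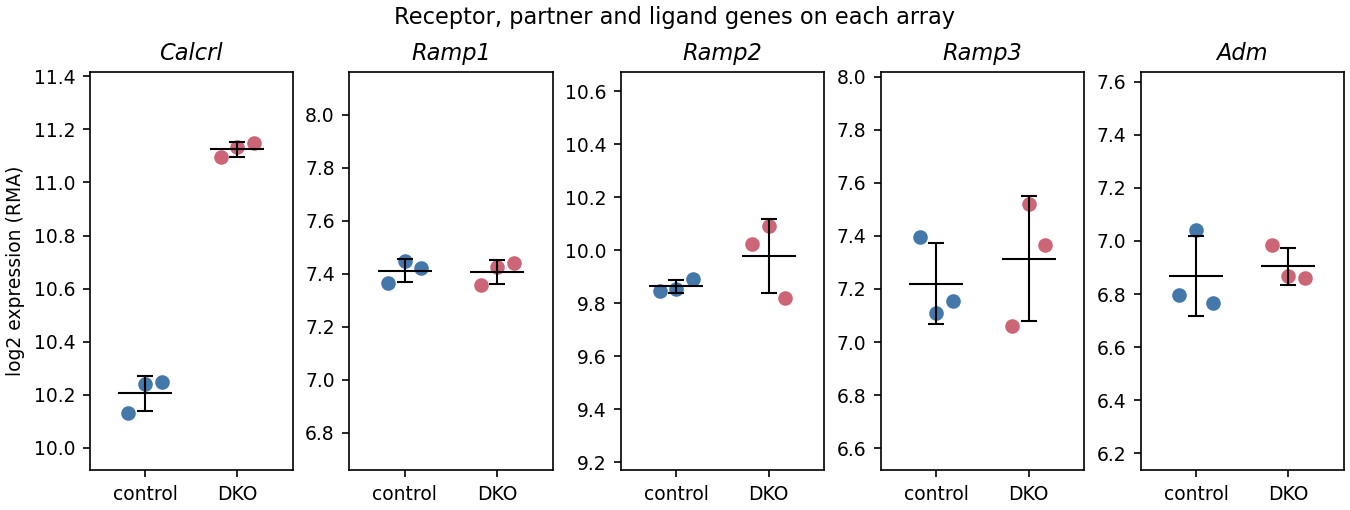
Log2 expression of Calcrl, Ramp1, Ramp2, Ramp3 and Adm on each of the 6 arrays, in panels that each span 1.5 log2 units, with points for arrays (blue control, red DKO), long bars for group means and whiskers for the SD (n = 3). The Calcrl group means differ by 0.92 with no overlap of the groups, and the groups of the other genes overlap.

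Among the other peptides, partners and clearance proteins of the system, 1 of 10 measured genes passed the test and fell, and 0 rose. The test was limma with Benjamini-Hochberg adjustment over all 19938 genes at an adjusted p under 0.05, which called 2.41% of all genes, 1.03% as higher and 1.38% as lower. An unadjusted p under 0.05 was reached by 12.8% of all genes, the share beside which the unadjusted counts below stand. Among the 10 it was reached by 4, Ide, Calcr, Mme and Crcp, each with a change below 0. For 3 of the 10, Ide, Calcr and Crcp, all DKO values were below all controls, against 10.4% of all genes. Of the 10 changes, 4 were above 0 and 6 below. The gene that fell was Ide, the insulin-degrading enzyme, a protease of small peptides that include amylin. Its log2 level was 10.57, 10.51 and 10.57 in controls 1 to 3 and 10.13, 9.79 and 9.98 in DKO 1 to 3. The highest DKO value was well below the lowest control, and the change was -0.59 (SE 0.08, n = 3 per group, adjusted p = 0.00714), 1.5-fold lower. When all probe sets of the array were tested together the adjusted p became 0.0571.

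Calcr, the calcitonin receptor and closest relative of Calcrl, stood at -0.28 (SE 0.07, adjusted p = 0.0880). Its controls were 7.59, 7.60 and 7.70 and its DKO arrays 7.22, 7.40 and 7.43, so that all DKO values were below all controls although this gene did not pass. With arrays weighted by their scatter it did (adjusted p = 0.0272). Mme, the membrane protease neprilysin, which cleaves adrenomedullin and many other peptides, had a change of -0.29 (SE 0.10, adjusted p = 0.224). Crcp, a small protein that couples the receptor to its signalling, had one of -0.15 (SE 0.06, adjusted p = 0.318).

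The scavenger receptors on this list did not pass. Gpr182, an endothelial scavenger receptor once thought to bind the peptide, was at 0.15 (SE 0.07, adjusted p = 0.415), and Ackr3, the decoy receptor CXCR7, was at 0.00 (SE 0.05, adjusted p = 0.987). Pam, the enzyme that adds the amide group adrenomedullin needs for activity, was at 0.01 (SE 0.07, adjusted p = 0.965). The ligand genes beside Adm did not pass either. Adm2, which encodes the related peptide intermedin, stood at 0.10 (adjusted p = 0.630), Calcb, for a calcitonin gene-related peptide, at -0.05 (adjusted p = 0.824), and Iapp, for amylin, at -0.06 (adjusted p = 0.802). The median change over these 10 genes was -0.06, and over all genes it was 0.00. Calca was not analysed here.

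**Figure D2:**
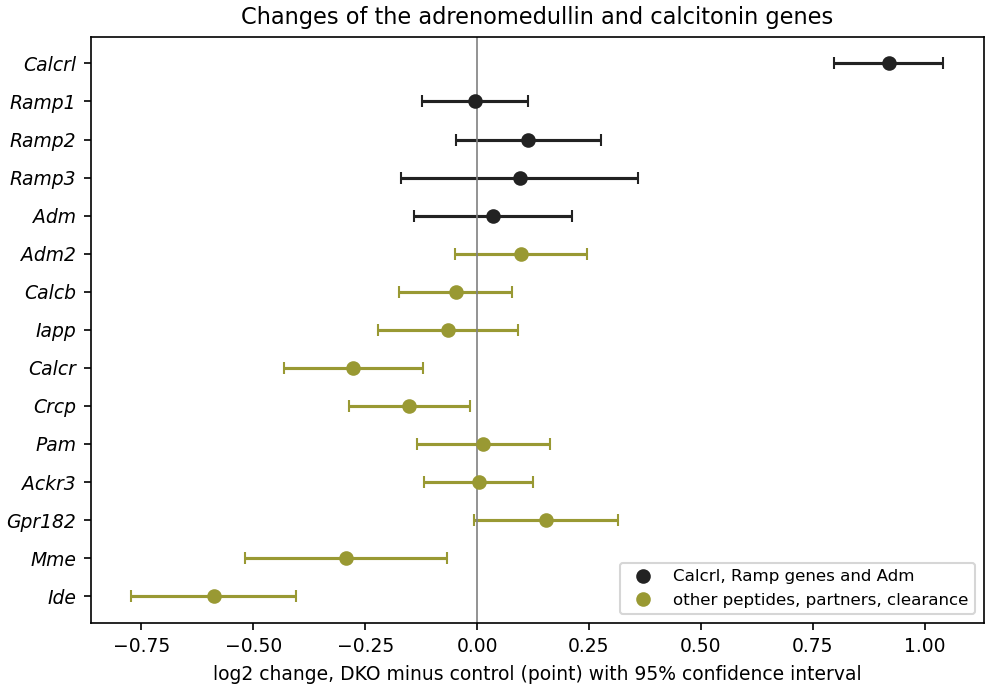
Log2 change, DKO minus control, with its 95% confidence interval from limma (n = 3 arrays per group), for Calcrl, the Ramp genes and Adm in black and the 10 other genes of the system in olive. Calcrl lies at 0.92, apart from all others, and Ide lies lowest at -0.59.

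The related class B receptors showed no change past the threshold. For 13 measured receptors the limma count was 0, with 2 at an unadjusted p under 0.05. The changes ran from -0.23 for Vipr2, a receptor for vasoactive intestinal peptide (adjusted p = 0.0873), to 0.18 for Sctr, the secretin receptor (adjusted p = 0.353). The median was 0.02. Calcrl, at 0.92, lay beyond all 13 of its measured relatives. Most of the 13, Sctr among them, had mean levels below the array medians of 7.87 to 7.89, and Calcrl lay above. A change in such dim receptors may be compressed, which limits this comparison.

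The genes for cyclic AMP signalling downstream of the receptor held no call. Transcript levels do not measure the signalling itself. Gnas, the gene of the stimulatory G protein, Prkaca, Rapgef4 and Adrbk1 were not analysed here. Of 36 measured genes for adenylyl cyclases, protein kinase A subunits, phosphodiesterases, exchange factors, arrestins and CREB factors, 0 passed in limma and 2 had an unadjusted p under 0.05. The median change was -0.01 and the range -0.24 to 0.12. The lowest were the adenylyl cyclases Adcy7 (-0.24, SE 0.06, adjusted p = 0.0847) and Adcy8 (-0.18, SE 0.07, adjusted p = 0.341). Among the alternatives run, these 2 counts moved with array weights, where limma called 2 class B receptors and 1 cyclic AMP gene.

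Adm is a known target of the hypoxia-inducible factors, and the other genes of that response lay mostly above 0, with Adm itself at 0.04. Of 19 measured hypoxia genes, 15 had a change above 0, against 50.2% of all genes, and the median was 0.12. The limma count was 0, with 8 at an unadjusted p under 0.05. The groups did not overlap, with DKO higher, for 9 of the 19, against 8.36% of all genes. The largest values were those of Bnip3, a mitochondrial protein of cell death and mitophagy (0.31, SE 0.13, adjusted p = 0.365), and Egln3, an oxygen-sensing hydroxylase (0.24, SE 0.07, adjusted p = 0.139). Without DKO 2 limma called 2, namely Bnip3 (0.46, adjusted p = 0.0186) and P4ha1, a collagen prolyl hydroxylase named here after its value was seen (0.32, adjusted p = 0.0182).

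Because Calcrl is known from endothelium, its values were set beside 19 endothelial markers, with Ramp2 kept out of that list. The limma count was 0 of 19, with 5 at an unadjusted p under 0.05, and 16 of the 19 changes were above 0. Their changes ran from -0.12 for Plvap to 0.20 for Tek, the angiopoietin receptor (adjusted p = 0.216), and Cdh5, the cadherin of endothelial junctions, was likewise at 0.20 (adjusted p = 0.243). The median was 0.12. The summed level of the 19 markers on the linear scale was 14790 to 15312 in control and 15503 to 17121 in DKO, so the groups did not overlap in this sum. The mean level of all 19 was above the array medians.

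The difference of Calcrl was larger than that of any of the 19 markers, and that of Ramp2 lay among theirs. The mean log2 level of the markers was 0.09 higher in DKO, against 0.92 for Calcrl and 0.11 for Ramp2. Relative to the marker mean on the same array, and set to 0 at the control mean, Calcrl was at -0.08, 0.01 and 0.07 in controls 1 to 3 and at 0.75, 0.82 and 0.92 in DKO 1 to 3. Every DKO array stayed far above every control after this subtraction, with a difference of 0.83 or 1.78-fold. Ramp2 on the same scale was at -0.03, -0.03 and 0.06 in the controls and at 0.02, 0.12 and -0.07 in DKO 1 to 3. The groups of Ramp2 overlapped, and their difference was 0.02. DKO 3, the array with the lowest Ramp2 of the DKO group, also had the lowest endothelial mean of that group, 9.43 against 9.54 and 9.51.

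**Figure D3:**
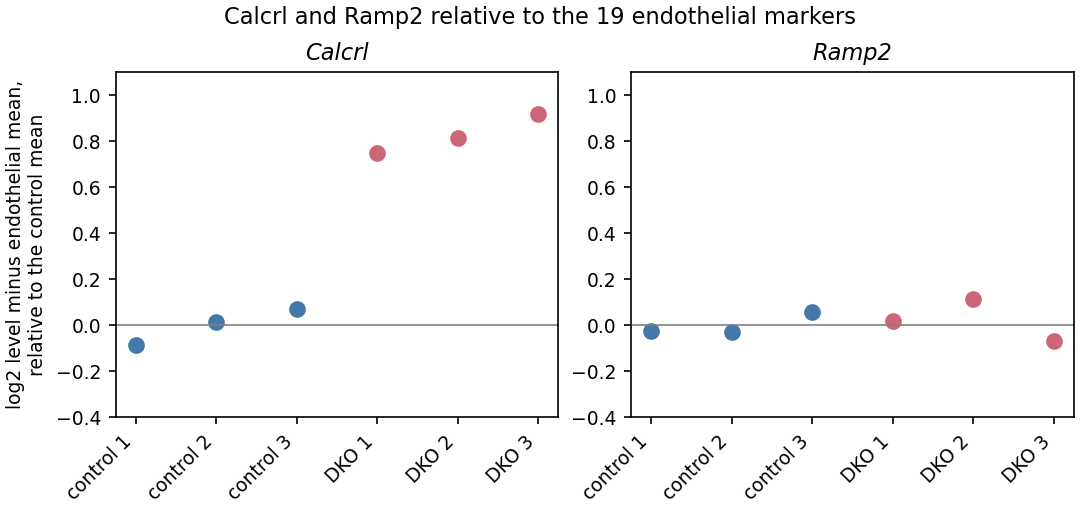
Log2 level of Calcrl (left) and Ramp2 (right) minus the mean of 19 endothelial markers on the same array, set to 0 at the control mean, with 1 point per array. Calcrl is at 0.75 to 0.92 on the DKO arrays, and Ramp2 is within 0.12 of 0 on all 6.

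Lymphatic endothelium, which depends on adrenomedullin signalling for its growth, was followed with 7 measured markers. The limma count was 0, with 2 at an unadjusted p under 0.05, and the median was -0.14. Nrp2, a semaphorin and VEGF-C receptor found on lymphatic vessels and veins, was lowest (-0.26, SE 0.06, adjusted p = 0.0608), and it passed with an intensity trend, array weights, a further quantile normalization or without the dimmest 30% of probes (adjusted p = 0.0130 to 0.0486). Prox1, the defining factor of lymphatic identity, stood at -0.21 (SE 0.11, adjusted p = 0.493), with DKO 2 at 7.45 and all other arrays between 7.87 and 7.98. The summed level was 4518 to 4647 in control and 4147 to 4423 in DKO. The brightest of the 7, which weigh most in that sum, were Nrp2, Itga9 (-0.14, adjusted p = 0.411) and Pdpn (-0.16, adjusted p = 0.21). Which cells carry these transcripts was not measured. Of the 7 changes, 4 were below 0 and 3 above. The 3 above were those of Lyve1 (0.18, adjusted p = 0.745), Reln (0.14, adjusted p = 0.390) and Flt4 (0.09, adjusted p = 0.706).

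Markers of other cell types of the bud moved between the groups as well, and their part in the difference of Calcrl was not tested. Of 10 pericyte and smooth muscle markers, 5 fell and 0 rose. They were Rgs5, a regulator of G protein signalling (-1.05, SE 0.14, adjusted p = 0.00598), and the contractile genes Cnn1 (-0.63), Myh11 (-0.60), Acta2 (-0.44) and Tagln (-0.44). The other 5, Pdgfrb, Cspg4, Kcnj8, Abcc9 and Notch3, did not pass and lay between 0.04 and 0.12. For 3 of them all DKO values were above the controls, against 8.36% of all genes. These 5 were named after their values were seen. The summed level of all 10 markers, the 5 that fell included, was 10282 to 11000 in control and 8383 to 9373 in DKO. Leaving out control 1 left 3 of these calls, leaving out control 2 or 3 left 1, leaving out DKO 3 left 2, and 2 passed with the replicate number as a block. Of 12 epithelial markers 10 fell and 0 rose. Their median was -0.57, with a summed level of 13230 to 14509 in control and 8407 to 9594 in DKO. All 12 epithelial changes were below 0.

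The lists with members that rose were mesothelium, heart muscle and mesenchyme. Of 8 mesothelial markers, 2 rose, Upk1b (0.47, adjusted p = 0.00904) and Gpm6a (0.42, adjusted p = 0.0260), and the summed level was 4199 to 4278 in control and 4727 to 4933 in DKO. The count was 1 without any of the controls or without DKO 3. The median was 0.17, and 7 of the 8 changes were above 0, the exception being the defining factor Wt1 at -0.02. Of 11 cardiac markers 1 rose, the atrial light chain gene Myl7 (0.80, SE 0.08, adjusted p = 0.00163), with summed levels of 3720 to 4019 in control and 4414 to 5277 in DKO. The cardiac count was 3 without DKO 2. The median was 0.16, and 10 of the 11 changes were above 0, the exception being the defining factor Nkx2-5 at -0.05. In the mesenchyme 1 of 10 markers rose, the growth factor Fgf10 (1.05, SE 0.12, adjusted p = 0.00236). The summed level overlapped between the groups, at 22022 to 22360 and 21814 to 22301. The mesenchymal median was -0.05, with 3 changes above 0 and 7 below. Wnt2, the lowest at -0.27 (adjusted p = 0.104), passed with an intensity trend (adjusted p = 0.0366) and with array weights (adjusted p = 0.0026). Among 8 leukocyte markers the limma count was 0, with 4 at an unadjusted p under 0.05, a median of -0.12 and sums of 2938 to 3038 and 2630 to 2821. The count became 1, Tyrobp, without DKO 1 (adjusted p = 0.0211). Of 6 neural crest and neuronal markers, Erbb3, a receptor that epithelium also expresses, fell (-0.88, SE 0.09, adjusted p = 0.00199). Its mean log2 level was 9.49 in control and 8.61 in DKO. The sums, which include Erbb3, were 1861 to 2086 in control and 1478 to 1769 in DKO. Of the 6 changes, 2 were above 0 and 4 below.

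**Figure D4:**
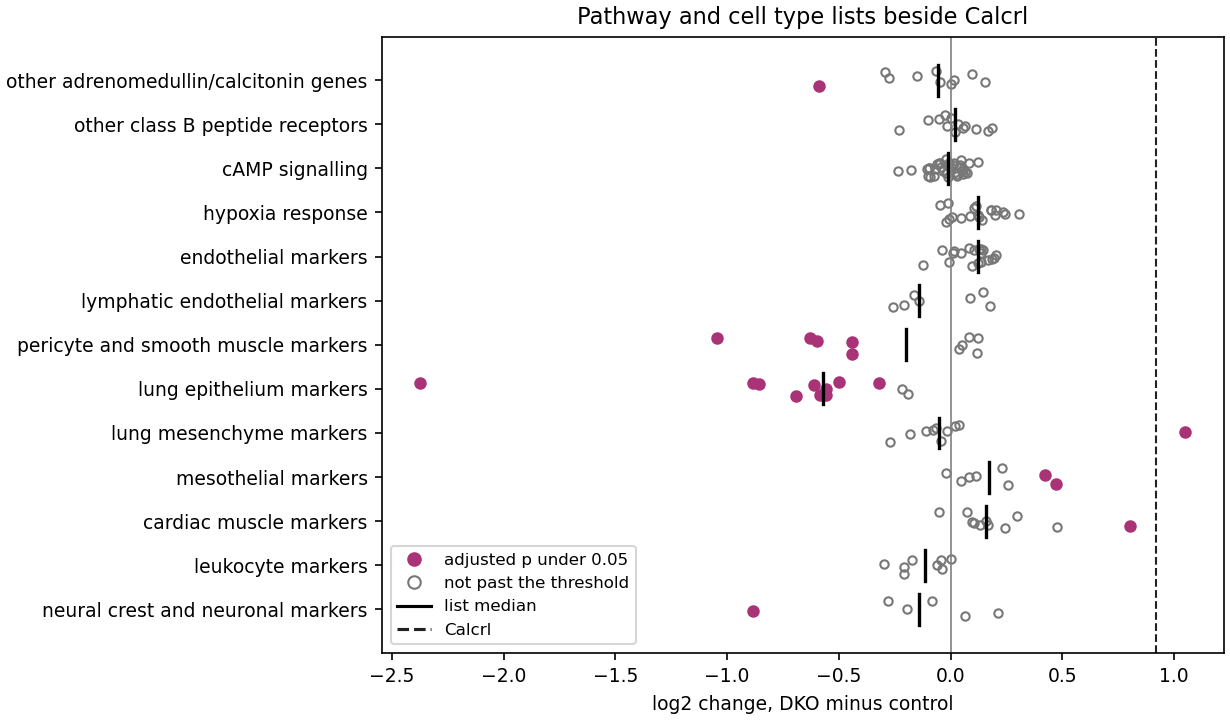
Log2 change, DKO minus control, of every measured gene on the 13 pathway and cell type lists, with filled points for an adjusted p under 0.05 in limma, black bars for list medians and a dashed line at the change of Calcrl, 0.92. Fgf10 is the one list gene to the right of the line, and the endothelial markers lie between -0.12 and 0.20.

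The nearest measured genes on each side of the 5 in the genome did not pass. The gene order places 4 of these 10 directly beside a member (Tfpi, Ube2f, Ezh1 and Vps25), and 1 to 8 genes lie between for the others. Tfpi, which follows Calcrl directly in the RefSeq gene order of chromosome 2 and encodes a coagulation inhibitor made by endothelium, had log2 levels of 10.40, 10.40 and 10.46 in controls 1 to 3 and of 10.65, 10.55 and 10.58 in DKO 1 to 3. The DKO values were all above the controls, but the change of 0.17 (SE 0.05, adjusted p = 0.161) was much smaller than that of Calcrl and passed only with array weights (adjusted p = 0.0299). Zswim2, the nearest measured gene on the other side with 8 genes between, was at 0.06 (adjusted p = 0.810). For Ramp2 the genes were Ezh1, a histone methyltransferase of Polycomb complexes, and Vps25, an endosomal sorting subunit, both at 0.08 (adjusted p = 0.590 and 0.625). For Ramp1 they were Rbm44 (0.13, adjusted p = 0.619) and Ube2f (0.04, adjusted p = 0.889). For Ramp3 they were Wap (0.03, adjusted p = 0.912) and the adenylyl cyclase gene Adcy1 (-0.02, adjusted p = 0.947), and for Adm they were Sbf2 (0.00, adjusted p = 0.997) and B430319F04Rik (-0.06, adjusted p = 0.829). Among these 10 genes, all DKO values were above all controls for Tfpi, Ezh1 and Vps25, against 8.36% of all genes, and the groups of the others overlapped. The limma count was 0 of these 10 genes, with 1 at an unadjusted p under 0.05. With array weights it was 2, Tfpi and Rbm44.

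The genes whose pattern over the 6 arrays was most like that of Calcrl were found by the root mean square difference between profiles, each centred on its own control mean. The smallest differences were those of Dram1, a lysosomal regulator of autophagy (0.12), Reg4, a secreted lectin of the gut (0.13), the aldo-keto reductase gene Akr1e1 (0.14), Myl7 (0.14) and Nup62cl (0.14), and the median over all other genes was 0.66. The log2 changes of these 5 were 0.85, 0.79, 0.82, 0.80 and 1.06. None of them is on the endothelial or the signalling lists. The measure follows the size of the difference between the groups, so these are genes with a rise of like size and little scatter.

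Over the whole series, the arrays correlated at r of at least 0.995 over all genes, and the DKO arrays scattered more widely about their group mean (SD of 0.0706 to 0.109 on the log2 scale) than the controls (0.0604 to 0.0651). Limma called 206 genes higher and 275 lower in DKO, and the total of 481 depended on single arrays: leaving out control 1 or control 3 gave 215, control 2 gave 197, DKO 2 gave 811 and DKO 3 gave 317. Of the targeted genes, Hdac1 was lower (-0.28, SE 0.05, adjusted p = 0.0193) and Hdac2 was at -0.04 (adjusted p = 0.845). Whether these probe sets lie in the deleted parts was not determined here, and the call of Hdac1 was lost without each array but DKO 2, with the replicate number as a block and over all probe sets (adjusted p = 0.0507 to 0.112 over these settings). The defining markers of lung were present, with mean log2 levels of Nkx2-1 at 10.55 in control and 10.36 in DKO and of the mesenchymal factor Foxf1 at 12.75 and 12.68.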

How the data were processed

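RNA from 6 lung bud samples (100 ng each, amplified and biotin-labelled, per the labels' protocols) was measured on 1-colour arrays, 3 per group, grouped by sample title. The deposited values are log2 expression per probe set. Tools named in the submitters' processing notes are oligo, RMA and limma, without versions or settings. RMA aligns the intensity distributions, so a change common to all genes cannot be seen, and the log base was taken from that method and from the range of 3.42 to 14.27. Precision is limited by the number of arrays.

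Of 35556 probe sets, the platform annotation names 1 gene for 21789, several for 1621, and 12146 were unnamed here. The brightest probe set per gene was used, giving 19938 genes, and Entrez identifiers matched 19856 of them to RefSeq (GRCm38.p6). Groups were compared in limma (version 3.58.1, R version 4.3.3) by lmFit and default eBayes, two-sided, with group as the term, checked on simulated data. Intervals are 95% confidence intervals. Probe coordinates were not used here.

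The 5 genes, the 13 lists and the tests were chosen with earlier results of these data known. Named genes were the 5, all other peptide system genes, up to 4 called genes of each other list (or the 2 with the largest change where none passed), the nearest measured genes on each side, the 5 genes most like Calcrl, Hdac1 and Hdac2. Plvap, P4ha1, Lyve1, Reln, Flt4, Pdpn, Itga9, Myh11, Pdgfrb, Cspg4, Kcnj8, Abcc9, Notch3, Wt1, Wnt2, Nkx2-1, Nkx2-5 and Foxf1 were added after their values were seen. As alternatives, the replicate number as a block was tried, and other eBayes settings, array weights, other scalings, the mean of probe sets, a filter on dim probe sets, all probe sets, and each array left out.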

Additional observations from a re-analysis of the deposited data

How the results depend on the processing

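The change of Calcrl stayed between 0.88 and 0.94 in all 11 alternatives run for it, and those of Ramp1 (-0.03 to 0.02), Ramp3 (-0.01 to 0.22) and Adm (-0.01 to 0.12) stayed within 1 SD of their values. Ramp2 went from 0.11 to -0.006 with array weights, which gave DKO 3 a weight of 4.09 and DKO 2 one of 0.275, and was 0.06 to 0.19 with an array left out. The 5 genes have 1 probe set each, so the mean of probe sets, counted among the 11, cannot alter them. The replicate number as a block, also counted, cannot alter a change either, because each number occurs once in each group.

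Over all genes, 481 calls became 2003 with array weights (1006 higher, 997 lower), 725 with an intensity trend (337 higher), 208 over all probe sets (82 higher, 126 lower) and 197 to 811 with an array left out (83 to 385 higher, 112 to 426 lower). With array weights the counts were 2 for peptides, partners and clearance, 2 for class B receptors, 1 for cyclic AMP, 5 for hypoxia, 1 for endothelium, 3 for lymphatic, 2 for mesenchyme, 4 for mesothelium, 5 for heart, 4 for leukocytes, 2 for neural crest and 2 for the nearest genes. The intensity trend gave 1 for hypoxia, 1 for lymphatic, 2 for mesenchyme and 2 for heart. Over all probe sets the counts were 0 for peptides, 0 for pericytes and smooth muscle and 0 for mesothelium. The lymphatic count was 1 with a further quantile normalization and 1 without the dimmest 30%. With an array left out the ranges were 0 to 2 for hypoxia, 1 to 3 for heart, 0 to 1 for leukocytes, 1 to 5 for pericytes and smooth muscle and 1 to 3 for mesothelium. The cause of these shifts was not tested.

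Deviations from the group means correlated at -0.06, 0.05 and 0.16 for replicate numbers 1, 2 and 3, and 3 of 6 arrays correlated best with their own number. With 3 arrays per group, these values cannot decide whether the numbers pair the arrays. With the replicate number as a block, 406 genes passed in place of 481, and 2 pericyte and smooth muscle markers in place of 5. Of 51 named genes, 18 changed their call under at least 1 alternative, 8 of them under one other than array weights or all probe sets, and 0 changed direction with a call. Signal over background was not measured, which among the 5 genes limits Adm, Ramp1 and Ramp3 most, and on the lists limits the dim class B receptors.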
